A study of Homo sapiens with 8 samples.

Results

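The mitochondrial chromosome of human cells carries 37 genes, and all of them were chosen here by their symbols, which begin with MT-. They are 37 of the 78932 genes in the deposited count tables. They comprise 13 mRNA genes, 2 rRNA genes and 22 tRNA genes. By the GENCODE 29 annotation of GRCh38, 28 of them lie on the plus strand and 9 on the minus strand, the latter being MT-ND6 and 8 tRNA genes. RNA came from HCT116, a human colorectal cancer line, in which a dTAG degron marks NUDT21. The NUDT21 protein belongs to CFIm, a factor that binds nuclear pre-mRNA ahead of the site where it is cut and tailed. The 2 groups were cells given DMSO with JTE-607 and cells given dTAGV1 with JTE-607, with 4 libraries each, called DMSO and dTAGV1 replicates 1 to 4 here. Where 4 values are given for a group, they stand in the order of the replicate numbers. JTE-607 is known as an inhibitor of the nuclease of the nuclear cleavage and polyadenylation machinery (CPSF), and dTAGV1 as a degrader of dTAG-marked proteins. All 8 libraries received JTE-607, so that neither group is untreated, and dose, time and number of clones are not given in the sources used here. The labels do not say that the replicates were separate cultures, so p-values measure the spread between these libraries, which may be technical.

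Mitochondrial DNA is transcribed from both strands into long precursors by the polymerase POLRMT. Enzymes that cut at the tRNAs then release the mRNAs and rRNAs between them. The tails of mitochondrial RNA are added inside the organelle by the poly(A) polymerase MTPAP, without CPSF or CFIm. In several mitochondrial mRNAs the tail also completes the stop codon, of which the DNA holds only the leading bases. All 13 proteins are subunits of the respiratory chain or of ATP synthase.

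Libraries were made with a kit that primes on runs of A and reads RNA near its 3′ end, and they held 8649238 to 9977205 reads each. Of these, 3447842 to 4291256 were counted to genes on the strand of the gene (sense reads), among them 282715 to 395441 mitochondrial ones. Levels are given as CPM, sense reads of a gene per 1000000 sense reads of the genes with enough reads to be tested. Each library's total was first multiplied by its TMM scaling factor from edgeR (1.01 to 1.04 with DMSO, 0.962 to 0.993 with dTAGV1). NUDT21 itself was at 32.2 ± 2.81 CPM (SD, n = 4) with DMSO and at 8.25 ± 2.62 CPM with dTAGV1, and the groups did not overlap. Of 6 epithelial markers, VIL1 had 0 to 3 reads in any library and 5 were tested, of which KRT19 and KRT18 fell by 0.65 and 0.60 on the log2 scale and EPCAM rose by 0.28. Of 6 markers of other cell types 1 was tested, COL1A1, at 17.3 ± 2.03 and 13.8 ± 1.77 CPM and not called. Of uniquely mapped reads, 30.1% to 33.7% with DMSO and 35.9% to 37.4% with dTAGV1 fell in no gene on the sense strand. Reads that fell in several genes are not among these. In bulk RNA, fewer cells of a type and less RNA per cell cannot be told apart.

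The ends of the mRNA genes are shown because a primer on the tail reads RNA from the end of an mRNA. They also separate genes annotated with a full stop codon from genes whose annotation ends within it. Not every gene end is the tailed end of an mRNA. MT-ATP8 and MT-ND4L each share an mRNA with the gene that follows, and the mRNA of MT-ND5 is known to run on past its reading frame. Where the RNAs end was not measured. The last 30 bases of each gene are given, 5′ to 3′ on the strand of the gene, from GRCh38, with the annotated stop codon or what the DNA holds of it in capitals. In 6 of the 13 mRNA genes, the annotated gene ended within the stop codon. The 6 genes are listed in chromosome order.
MT-ND1, chrM:4233-4262, plus strand: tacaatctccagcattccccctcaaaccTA
MT-ND2, chrM:5482-5511, plus strand: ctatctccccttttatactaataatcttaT
MT-CO3, chrM:9961-9990, plus strand: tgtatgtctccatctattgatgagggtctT
MT-ND3, chrM:10375-10404, plus strand: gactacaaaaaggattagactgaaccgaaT
MT-ND4, chrM:12108-12137, plus strand: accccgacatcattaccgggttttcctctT
MT-CYB, chrM:15858-15887, plus strand: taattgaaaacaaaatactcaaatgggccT
Of the 7 genes annotated with a full stop codon, 4 are shown. The last base of MT-ATP6, chrM:9207, is also the first base of MT-CO3. The annotation thus does not show that the mRNA of MT-ATP6 holds the full stop codon. AGA and AGG end MT-CO1 and MT-ND6.
MT-CO1, chrM:7416-7445, plus strand: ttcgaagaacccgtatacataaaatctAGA
MT-ATP8, chrM:8543-8572, plus strand: tcgcttcattcattgcccccacaatccTAG
MT-ATP6, chrM:9178-9207, plus strand: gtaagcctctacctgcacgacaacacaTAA
MT-ND6, chrM:14149-14178, minus strand: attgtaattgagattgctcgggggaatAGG

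An A-rich stretch within a gene is another place where such a primer can sit. For each gene the 20-base window with the most A was found, and those of the genes with the most A-rich windows are shown with runs of at least 4 A in capitals. The window of MT-ATP8 held 15 A, the most among the 37 genes, and it ended 60 bases before the 3′ end of the gene. Those of MT-RNR2 and MT-ND5 held 14. The strand opposite to MT-ND6 also had a window with 14 A. These are descriptions of sequence, and no read positions were available to place the primers.
MT-ATP8, chrM:8493-8512, plus strand: aaatAAAAAAttataacaaa
MT-RNR2, chrM:2450-2469, plus strand: aaaggttAAAAAAAgtAAAA
MT-ND5, chrM:13218-13237, plus strand: acAAAAtgacatcAAAAAAA

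The 4 tRNA genes below are shown whole, 2 from each strand. Reads of MT-TF and MT-TM rose in level with dTAGV1, and those of MT-TP and MT-TS1 had the largest falls in share among the tRNA genes.
MT-TF, chrM:577-647, plus strand: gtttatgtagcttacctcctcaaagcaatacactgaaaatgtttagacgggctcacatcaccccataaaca
MT-TM, chrM:4402-4469, plus strand: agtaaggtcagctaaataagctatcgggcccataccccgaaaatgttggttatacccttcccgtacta
MT-TS1, chrM:7446-7514, minus strand: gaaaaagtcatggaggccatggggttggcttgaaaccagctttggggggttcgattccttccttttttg
MT-TP, chrM:15956-16023, minus strand: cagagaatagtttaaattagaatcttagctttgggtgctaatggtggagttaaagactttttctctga

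With dTAGV1, mitochondrial reads made up more of the reads counted to genes. Their share was 7.98%, 8.51%, 8.56% and 8.33% with DMSO and 9.89%, 10.4%, 10.04% and 9.22% with dTAGV1. The groups did not overlap, and the means were 8.34% ± 0.265 and 9.88% ± 0.490 (SD, n = 4). With all reads as the denominator, the shares were 3.44% ± 0.136 and 3.91% ± 0.185, again with no overlap between the groups, at 3.27% to 3.60% and 3.68% to 4.12%. With uniquely mapped reads as the denominator the groups overlapped, at 5.10% to 5.72% and 5.60% to 6.19%. The ratio of the group means was 1.18 for reads counted to genes, 1.14 for all reads and 1.11 for uniquely mapped reads. The share of uniquely mapped reads in no gene differed between the groups as given above, and its part in the difference was not tested. These shares are sums over the chosen genes and are given without a test.

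Within the mitochondrial reads, the 2 rRNAs and a few mRNAs held most. Averaged over the 8 libraries, MT-RNR2, the large rRNA, held 28.4% and MT-RNR1, the small rRNA, 13.1%. MT-CO3 followed with 9.19%, MT-ATP8 with 8.87% and MT-ND4 with 7.06%, so that 5 genes held 66.6%. The remaining mRNAs lay between 6.37% for MT-ND3 and 0.410% for MT-ND6, the mRNA of the minus strand. Scaled by gene length, the order changed: MT-ATP8 took 29.01% of the length-scaled total, MT-ND3 12.6%, MT-RNR2 12.4%, MT-RNR1 9.33% and MT-CO3 7.95%. On that scale MT-CO1, the catalytic subunit of cytochrome c oxidase, held 0.898% and MT-ND6 0.529%. Reads gather near priming sites, so that neither scale measures molecules per gene.

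The shares of mRNA and rRNA among mitochondrial reads overlapped between the groups. Reads of the mRNA genes were 57.8% ± 3.29 of the mitochondrial total with DMSO, against 58.3% ± 1.61 with dTAGV1, and those of the rRNA genes 41.7% ± 3.17 and 41.4% ± 1.55 (SD, n = 4). The tRNA genes held 0.377%, 0.652%, 0.639% and 0.494% with DMSO and 0.282%, 0.409%, 0.358% and 0.279% with dTAGV1. The 2 groups overlapped only through DMSO replicate 1, the lowest of its group, which lay below dTAGV1 replicate 2.

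**Figure D1:**
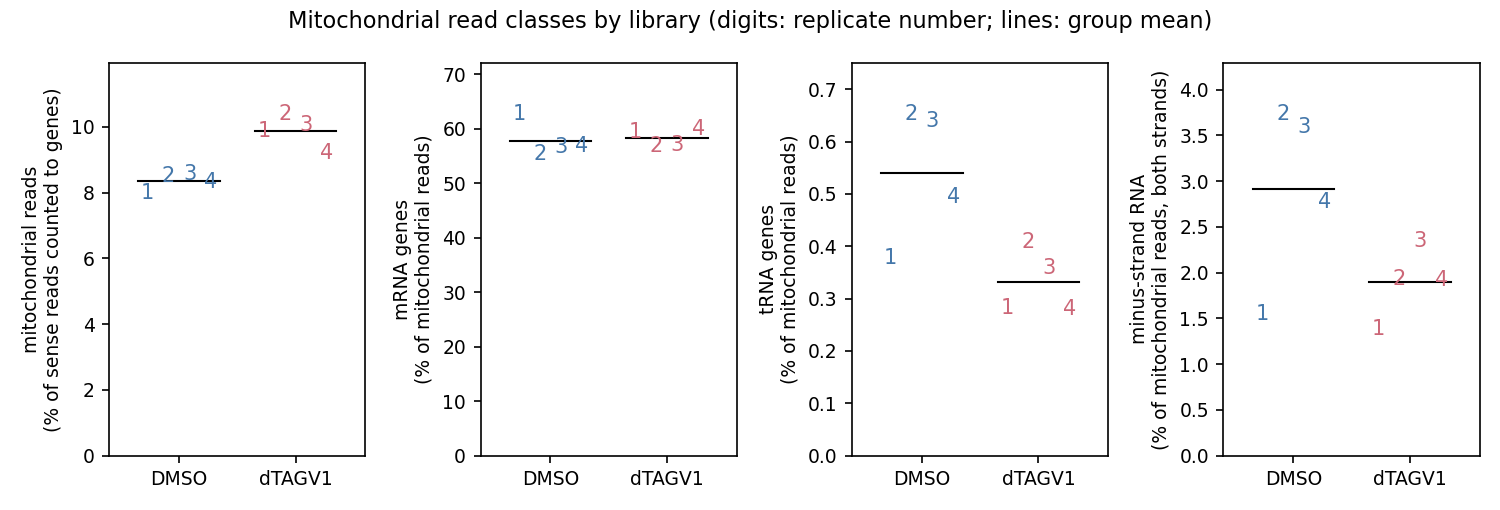
Mitochondrial reads as a share of sense reads counted to genes, and the mRNA genes, tRNA genes and minus-strand RNA as a share of mitochondrial reads (y axes, in %), for DMSO and dTAGV1 libraries. Each digit is 1 library, named by its replicate number, and the lines are group means. The mitochondrial share is 7.98% to 8.56% with DMSO and 9.22% to 10.4% with dTAGV1, while the mRNA share overlaps between the groups.

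Of the 37 genes, 24 had enough sense reads to be tested with all other genes. With edgeR's quasi-likelihood test and Benjamini-Hochberg adjustment over 12618 tested genes, 10 of the 24 were called higher with dTAGV1 and 1 lower at an adjusted p under 0.05. That is 45.8% called, beside 57.9% of all tested genes, so that the genes were not called more often than others. By direction, 41.7% were called higher, beside 29.4% of all genes, and 4.17% lower, beside 28.5%. In 10 of the 24 the groups did not overlap, with dTAGV1 above in 9 and below in 1, which is 41.7% beside 50.9% of all genes. The median log2 fold change was 0.27 over the 24 and 0.01 over all tested genes. By class, 7 of 13 mRNA genes and 1 of 2 rRNA genes rose, while 2 of the 9 tested tRNA genes rose and 1 fell. All 10 genes that rose lie on the plus strand, of which 17 were tested, and the gene that fell is on the minus strand, of which 7 were tested. The number called lower rose from 1 to 4 without DMSO replicate 1, to 3 without dTAGV1 replicate 2 and to 2 without DMSO replicate 4.

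**Figure D2:**
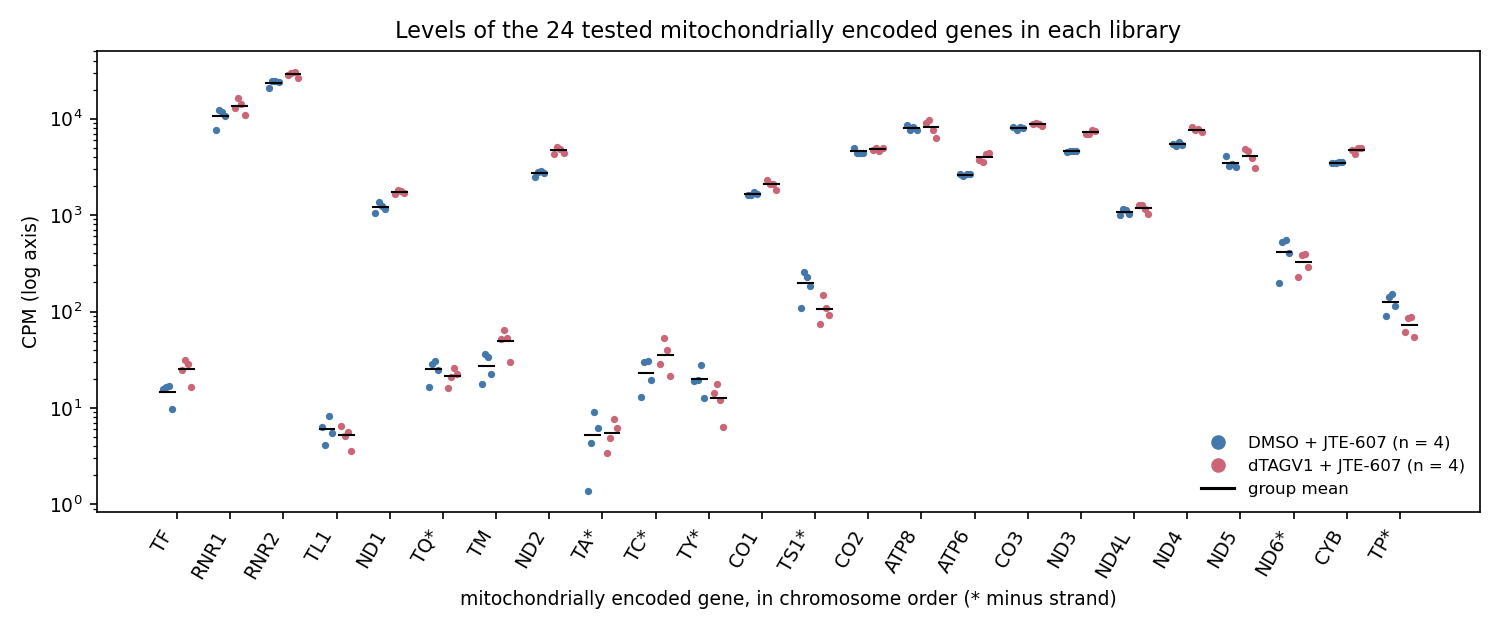
Sense CPM of the 24 tested genes (log axis) by library, in chromosome order, with DMSO in blue, dTAGV1 in red and group means as lines. Values run from about 1.37 CPM for MT-TA in DMSO replicate 1 to 30646 CPM for MT-RNR2 in dTAGV1 replicate 3, and the groups lie apart for MT-ND2 and MT-ND3 and overlap for MT-ATP8.

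Among the 7 subunits of complex I, which passes electrons from NADH to ubiquinone, 4 rose and 3 did not pass the test. MT-ND2 was at 2458, 2769, 2850 and 2723 CPM with DMSO and at 4305, 5126, 4879 and 4416 CPM with dTAGV1. Every dTAGV1 library was above every DMSO library. The fitted change of MT-ND2 was 1.73-fold, a log2 fold change of 0.79 (SE 0.07), with an adjusted p of 6.49e-10 by edgeR's quasi-likelihood test. This was the largest change among the mRNAs and rRNAs.

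MT-ND3 was at 4516, 4655, 4604 and 4641 CPM with DMSO and at 6942, 6994, 7553 and 7512 CPM with dTAGV1. The means were 4604 ± 62.3 and 7250 ± 327 CPM (SD, n = 4), with a log2 fold change of 0.66 (SE 0.06, edgeR adjusted p = 1.78e-09). MT-ND1 rose from 1205 ± 131 to 1733 ± 75.7 CPM (SD, n = 4), with a log2 fold change of 0.52 (SE 0.07, edgeR adjusted p = 1.15e-06). MT-ND4 rose from 5394 ± 208 to 7684 ± 350 CPM, by 0.51 on the log2 scale (SE 0.06, edgeR adjusted p = 1.57e-07). In all of these, the groups did not overlap.

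The other complex I subunits were MT-ND4L, MT-ND5 and MT-ND6. MT-ND4L was at 1078 ± 77.6 CPM with DMSO and 1180 ± 121 CPM with dTAGV1 (SD, n = 4), and it passed the test only without dTAGV1 replicate 4 (log2 fold change 0.18, edgeR adjusted p = 0.0270). MT-ND5 was at 3455 ± 466 and 4130 ± 816 CPM, with an edgeR adjusted p of 0.176. That p became 0.0357 without DMSO replicate 1 and 0.00524 without dTAGV1 replicate 4. MT-ND6, the mRNA of the minus strand, is described with the other genes of that strand.

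MT-ND4L and MT-ND4 are read from 1 shared mRNA, and their reading frames overlap at chrM:10760-10766. The ratio of MT-ND4 reads to MT-ND4L reads was 5.47, 4.52, 4.98 and 5.12 with DMSO and 6.39, 5.93, 6.73 and 7.14 with dTAGV1. The groups did not overlap. The same held for MT-ATP8 and MT-ATP6, which also share an mRNA and overlap at chrM:8527-8572. The ratio of MT-ATP6 reads to MT-ATP8 reads was 0.309, 0.331, 0.327 and 0.347 with DMSO and 0.419, 0.372, 0.567 and 0.698 with dTAGV1. In both shared mRNAs, the gene nearer the 3′ end thus took more of the reads with dTAGV1. The ratio of MT-CO3, the next gene, to MT-ATP6 instead fell from 3.06 ± 0.0395 with DMSO to 2.20 ± 0.291 with dTAGV1 (SD, n = 4). Mean ratios of MT-RNR2 to MT-RNR1 and of MT-CO2 to MT-CO1 were also lower with dTAGV1, with overlap between the groups. Reads within an overlap on the same strand are counted to neither gene in this layout, and the ratios were chosen after the values were seen and carry no test.

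MT-CYB, the only subunit of complex III encoded in the organelle, rose. It was at 3453, 3439, 3522 and 3537 CPM with DMSO and at 4684, 4304, 5010 and 4956 CPM with dTAGV1. The groups did not overlap, and the log2 fold change was 0.44 (SE 0.06, edgeR adjusted p = 2.09e-06).

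In complex IV, cytochrome c oxidase, 1 of the 3 subunits rose. MT-CO1 went from 1662 ± 50.7 to 2088 ± 205 CPM (SD, n = 4), with a log2 fold change of 0.33 (SE 0.07, edgeR adjusted p = 0.000274), and its groups did not overlap. MT-CO2, which takes up electrons from cytochrome c, was at 4564 ± 300 CPM with DMSO and 4859 ± 158 CPM with dTAGV1, with an edgeR adjusted p of 0.234. MT-CO3 was at 8245, 7714, 8184 and 8009 CPM with DMSO and at 8824, 9049, 8696 and 8307 CPM with dTAGV1. The groups of MT-CO3 did not overlap, yet the log2 fold change was 0.12 and the edgeR adjusted p 0.100.

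The 2 subunits of ATP synthase went apart. MT-ATP6, part of the proton channel, was at 2656, 2512, 2697 and 2657 CPM with DMSO and at 3761, 3587, 4299 and 4398 CPM with dTAGV1. Its log2 fold change was 0.61 (SE 0.07, edgeR adjusted p = 5.76e-08), and the groups did not overlap. MT-ATP8, a small membrane subunit, was at 8601, 7592, 8257 and 7646 CPM with DMSO and at 8976, 9644, 7584 and 6303 CPM with dTAGV1. The dTAGV1 libraries held both the highest and the lowest value of MT-ATP8, and the log2 fold change was 0.02 (SE 0.11, edgeR adjusted p = 0.898).

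Set against the annotated ends, 5 of the 6 genes that end within the stop codon rose (MT-ND1, MT-ND2, MT-ND3, MT-ND4 and MT-CYB), and MT-CO3 was the exception. Of the 7 genes annotated with a full stop codon, 2 rose, MT-CO1 and MT-ATP6. MT-ATP6 shares its last base with MT-CO3, so its place in this class rests on the annotation alone. These counts describe 13 genes that share precursor transcripts, and they were not tested.

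Of the 2 rRNAs, MT-RNR2 rose. It was at 20865, 24392, 24784 and 24162 CPM with DMSO and at 28365, 29687, 30646 and 26418 CPM with dTAGV1, with no overlap between the groups. Its log2 fold change was 0.29 (SE 0.07, edgeR adjusted p = 0.000705). MT-RNR1 was at 7714, 12383, 11750 and 10748 CPM with DMSO and at 12804, 16488, 14234 and 10801 CPM with dTAGV1. DMSO replicate 1 was the lowest by far for MT-RNR1, the groups overlapped, and the log2 fold change of 0.35 had an SE of 0.18 and an edgeR adjusted p of 0.134.

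The tRNA genes drew few reads, and 9 of the 22 were tested. The kit primes on runs of A, and uncut precursors also hold the tRNAs. Changes given for tRNA genes are thus changes in reads over the gene, not in mature tRNA. Which RNA these reads came from was not tested. The 13 untested genes, all tRNAs, had at most 20 sense reads in any library and 191 in all. Among them MT-TK, MT-TG, MT-TR and MT-TL2 had no sense read in any of the 8 libraries, which allows a level of up to 0.699 to 0.870 CPM per library (3 reads, counting error only). MT-TI, the isoleucine tRNA, was at 0 to 1.93 CPM with DMSO and 2.72 to 4.73 CPM with dTAGV1, too few reads for the test.

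MT-TF and MT-TM, the plus-strand genes of the phenylalanine and methionine tRNAs, both rose in reads. MT-TF was at 15.6, 16.4, 16.8 and 9.64 CPM with DMSO and at 24.7, 31.7, 28.6 and 16.3 CPM with dTAGV1. The groups met only at dTAGV1 replicate 4, and the log2 fold change was 0.78 (SE 0.20, edgeR adjusted p = 0.00190). MT-TM was at 17.8, 36.2, 33.4 and 22.5 CPM with DMSO and at 51.6, 64.6, 53.3 and 29.8 CPM with dTAGV1, with a log2 fold change of 0.84 (SE 0.29, edgeR adjusted p = 0.0366). The call of MT-TM was lost without DMSO replicate 4 or any of dTAGV1 replicates 1 to 3, at edgeR adjusted p-values of 0.0601 to 0.0915. MT-TL1, a leucine tRNA, was at 6.02 ± 1.75 and 5.20 ± 1.24 CPM (SD, n = 4) and was not called.

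Of the 7 tested genes of the minus strand, 1 fell and 6 did not pass the test. MT-TP, the proline tRNA, was at 89.6, 143, 152 and 114 CPM with DMSO and at 61.5, 86.1, 86.9 and 54.6 CPM with dTAGV1. All 4 dTAGV1 libraries lay below all DMSO libraries. MT-TP was the only mitochondrial gene called lower with all libraries in the fit, with a log2 fold change of -0.80 (SE 0.21, edgeR adjusted p = 0.0116). With reads of both strands counted together the edgeR adjusted p of MT-TP was 0.159.

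MT-TS1, a serine tRNA, was at 110, 258, 230 and 183 CPM with DMSO and at 73.7, 150, 108 and 92.7 CPM with dTAGV1. Here DMSO replicate 1 stood within the dTAGV1 range, and the log2 fold change of -0.89 had an SE of 0.33 and an edgeR adjusted p of 0.0572. Without DMSO replicate 1 the log2 fold change was -1.09 (edgeR adjusted p = 0.00622), and without dTAGV1 replicate 2 it was -1.11 (edgeR adjusted p = 0.0348). MT-TY, the tyrosine tRNA, was at 19.8 ± 6.32 and 12.6 ± 4.71 CPM (SD, n = 4), also short of the threshold (edgeR adjusted p = 0.0571). It passed without DMSO replicate 4 (log2 fold change -0.84, edgeR adjusted p = 0.00755) and without dTAGV1 replicate 2 (log2 fold change -0.88, edgeR adjusted p = 0.0145). With DESeq2 in place of edgeR both genes passed, at adjusted p-values of 0.0172 for MT-TS1 and 0.0198 for MT-TY.

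MT-ND6 was at 198, 520, 553 and 403 CPM with DMSO and at 230, 384, 393 and 287 CPM with dTAGV1. Replicate 1 was the lowest of its group in both, and the log2 fold change of -0.37 had an edgeR adjusted p of 0.406. Without DMSO replicate 1 it was -0.61 (edgeR adjusted p = 0.0388). MT-TQ, the glutamine tRNA, had no call with all libraries and was called lower without DMSO replicate 1 (log2 fold change -0.38, edgeR adjusted p = 0.0410). MT-TC, the cysteine tRNA, was at 23.2 ± 8.58 CPM with DMSO and 35.7 ± 13.98 CPM with dTAGV1 (SD, n = 4), and MT-TA, the alanine tRNA, at 5.24 ± 3.23 and 5.51 ± 1.82 CPM, neither of them called.

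**Figure D3:**
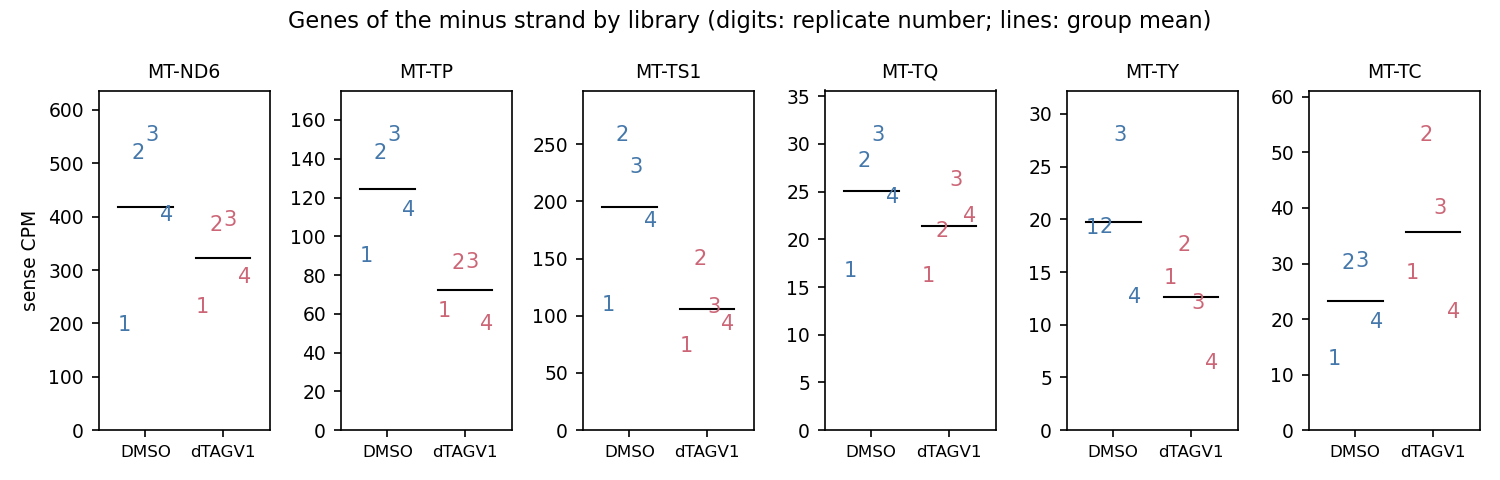
Sense CPM (y axes, from 0) of 6 genes of the minus strand, for DMSO and dTAGV1 libraries. Each digit is 1 library, named by its replicate number, and lines are group means. For MT-TP all dTAGV1 libraries lie below the DMSO libraries, and in MT-ND6 replicate 1 is the lowest of both groups, at 198 and 230 CPM.

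Levels above are set against all genes, and a second fit asked how the genes changed against the mitochondrial total of each library. With that total as the library size, 7 of the 24 genes were higher and 8 lower with dTAGV1 at an adjusted p under 0.05 (edgeR, adjusted over all tested genes). That is 62.5%, near the 60.7% of all tested genes called under this scaling, so that the count by itself says nothing particular about these genes. The median log2 fold change was -0.05 over the 24 and -0.30 over all genes. The genes higher in share were MT-ND2, MT-ND3, MT-ATP6, MT-ND1, MT-ND4, MT-TF and MT-TM, all of the plus strand. Those lower were MT-TP, MT-TS1, MT-TY and MT-TQ of the minus strand and MT-ATP8, MT-CO2, MT-CO3 and MT-ND4L of the plus strand. None of MT-CO2, MT-CO3, MT-ATP8 and MT-ND4L was called by level, and the level change of MT-ATP8 turned below 0 in 8 of 17 alternatives, library size scaling among them.

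The share of MT-ND2 was 3.29% ± 0.0759 with DMSO, against 4.58% ± 0.248 with dTAGV1 (SD, n = 4), a log2 fold change of 0.48 in share (edgeR adjusted p = 1.62e-06). MT-ND3 went from 5.63% ± 0.189 to 7.12% ± 0.675, and the groups of both genes did not overlap. MT-ATP8 held 11.1%, 9.09%, 9.68% and 9.37% with DMSO and 8.79%, 8.92%, 7.22% and 6.74% with dTAGV1, all lower, with a log2 fold change of -0.31 (edgeR adjusted p = 0.00253). MT-TP held 0.151% ± 0.0290 and 0.0702% ± 0.0127, and its log2 fold change in share was -1.11 (edgeR adjusted p = 1.51e-08). MT-TS1 held 0.236% ± 0.0720 and 0.103% ± 0.0273, with a log2 fold change of -1.20 (edgeR adjusted p = 0.0109).

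Of the 15 share calls, 8 held under every alternative run, those of MT-ND2, MT-ND3, MT-ATP6, MT-ATP8, MT-TP, MT-TS1, MT-TY and MT-TQ. The other 7 (MT-ND1, MT-ND4, MT-TF, MT-TM, MT-CO2, MT-CO3 and MT-ND4L) all lost the threshold without dTAGV1 replicate 3, and all but MT-CO2 without DMSO replicate 4. Of these 7, MT-ND1, MT-TM, MT-CO2 and MT-CO3 also lost it without DMSO replicate 1, MT-ND4 and MT-ND4L without DMSO replicate 2, and MT-ND1, MT-ND4 and MT-ND4L without DMSO replicate 3. Among the dTAGV1 libraries, leaving out replicate 1 ended the calls of MT-ND4, MT-TM and MT-CO3, replicate 2 those of MT-TF and MT-TM, and replicate 4 that of MT-ND4L. Without dTAGV1 replicate 3, 3 genes were higher and 5 lower in share, and without DMSO replicate 4 the number higher was also 3. MT-RNR1, MT-RNR2 and MT-CO1 had share changes of 0.03, -0.03 and 0.01 on the log2 scale and were not called.

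**Figure D4:**
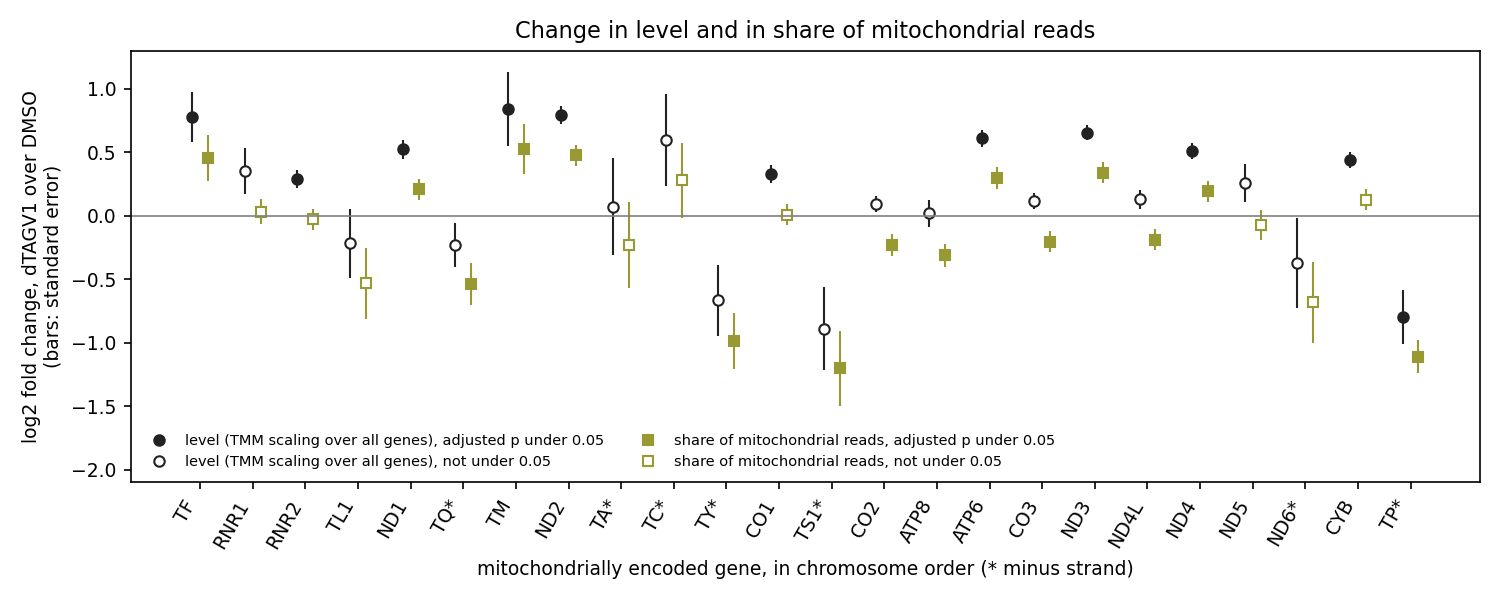
Log2 fold change of each tested gene, dTAGV1 over DMSO (y axis, bars are standard errors), against all genes (circles) and against the mitochondrial total (squares), with filled symbols at an adjusted p under 0.05. MT-ND2, at 0.79 and 0.48, is above 0 on both scales and MT-TP, at -0.80 and -1.11, below 0 on both, while MT-ATP8 moves from 0.02 to -0.31.

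Reads on the strand opposite to a gene were counted separately, which allows RNA of both strands of the chromosome to be followed. Opposite reads were 2.34% to 4.07% of the reads over mitochondrial genes, beside 11.1% to 11.6% over nuclear genes. Over the 2 rRNA genes they were 2 to 16 reads per library, or 0.00191% to 0.0105%, although these are the most abundant of the RNAs. Over MT-ND6, 72.9% of the reads were RNA of the plus strand, and over MT-TE and MT-TP, on the same strand as MT-ND6, 97.9% and 73.3%. The mRNA of MT-ND5 is known to run on past its reading frame across from MT-ND6. RNA of the minus strand made up 18.5% of the reads over MT-ND5, 8.37% over MT-ND1, 4.70% over MT-CO1, 3.22% over MT-CYB, 2.31% over MT-ND4 and 0.0149% over MT-ATP8.

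**Figure D5:**
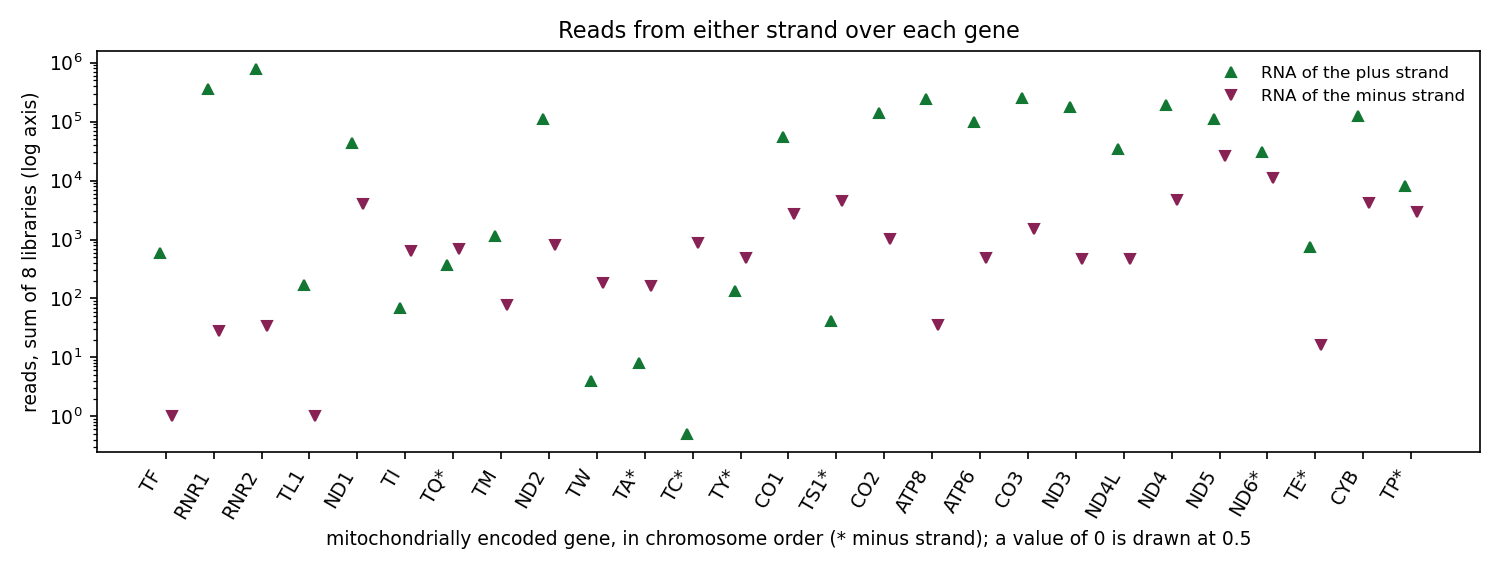
Reads over each gene that come from RNA of the plus strand (green) and of the minus strand (purple), summed over the 8 libraries (log axis), in chromosome order. Plus-strand RNA exceeds minus-strand RNA over every mRNA and rRNA gene, including MT-ND6, which is encoded on the minus strand.

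Opposite counts were fitted on their own, over 3324 genes. Of the 18 mitochondrial genes tested, 0 were called higher and 1 lower by edgeR's quasi-likelihood test, or 5.56% in all, beside 48.4% of all genes in that table and 24.5% called lower. At an unadjusted p under 0.05 in the same edgeR fit, 1 was higher (MT-TQ) and 1 lower (MT-ND1), and no other tool was run on these counts. The median log2 fold change was -0.35 over the 18 and 0.02 over all tested genes. Antisense RNA of MT-ND1 was at 877, 2045, 1864 and 1330 CPM with DMSO and at 601, 862, 1017 and 770.5 CPM with dTAGV1. These CPM are per 1000000 opposite reads of the genes tested in this fit, with TMM scaling. The ranges overlapped through DMSO replicate 1, and the log2 fold change was -0.92 (SE 0.30, edgeR adjusted p = 0.0438). This call was lost when any single library other than DMSO replicate 1 was left out, at edgeR adjusted p-values of 0.0531 to 0.109. Without DMSO replicate 1, 7 mitochondrial genes were called lower and 1 higher on the opposite strand, and without dTAGV1 replicate 3, 3 were called lower.

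Plus-strand RNA over MT-ND6 was counted with 4736, 3321, 3094 and 3169 reads with DMSO and 4330, 4182, 3784 and 3615 reads with dTAGV1. DMSO replicate 1 was the highest of all 8, and without it the log2 fold change was 0.30 (edgeR adjusted p = 0.0173), against 0.13 (edgeR adjusted p = 0.606) with it. Minus-strand RNA over MT-ND5 was counted with 1575, 5136, 4500 and 3699 reads with DMSO and 1937, 2535, 3304 and 2940 with dTAGV1. Replicate 1 was the lowest of both groups there.

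Summed over sense and opposite counts, minus-strand RNA was 1.55%, 3.73%, 3.59% and 2.77% of mitochondrial reads with DMSO and 1.38%, 1.93%, 2.35% and 1.92% with dTAGV1. The lowest value of each group was in replicate 1, and DMSO replicate 1 lay within the dTAGV1 range. The other 3 DMSO libraries were above all dTAGV1 libraries. DMSO replicate 1 also had the lowest rRNA share of mitochondrial reads, 36.99%, beside 42.8% to 44.1% in the other DMSO libraries. What set that library apart was not tested.

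Nuclear pseudogenes that copy mitochondrial genes could exchange reads with them. Of 404 such copies listed, 6 were tested, with 2 called higher and 0 lower by edgeR (also 0 lower at an unadjusted p under 0.05). That is 33.3% called. Of all tested genes, 57.9% were called and 29.4% called higher. The median log2 fold change of the tested copies was 0.29. MTATP6P1, on chromosome 1, went from 171 ± 14.2 to 267 ± 22.6 CPM (SD, n = 4), with a log2 fold change of 0.64 (edgeR adjusted p = 1.75e-07), beside 0.61 for MT-ATP6. MTND2P28 went from 38.0 ± 3.87 to 48.3 ± 6.39 CPM, with a log2 fold change of 0.34 (edgeR adjusted p = 0.0150), beside 0.79 for MT-ND2. Reads that fit both a gene and its copy equally are not counted in these tables, so values of MT-ND2, MT-ATP6 and their copies are uncertain to that extent. Without DMSO replicate 4 or dTAGV1 replicate 3, 1 copy was called.

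The nuclear genes that serve mitochondrial RNA are given by the lists in which they were grouped. Of the 12 tested genes for mitochondrial transcription and its regulators, 4 rose and 4 fell (66.7% called, beside 57.9% of all tested genes, the background for all lists here), with a median log2 fold change of 0.13. POLRMT, the polymerase that makes all of the RNAs above, went from 30.5 ± 2.75 to 39.5 ± 6.05 CPM (SD, n = 4), with a log2 fold change of 0.37 (edgeR adjusted p = 0.0145). MTERF1, a termination factor that binds downstream of the rRNA genes, rose by 0.66 on the log2 scale. NRF1, a nuclear activator of mitochondrial genes, fell by 0.46 (edgeR adjusted p = 0.0156) and MTERF3 by 0.44 (edgeR adjusted p = 0.0498, close to the threshold). The groups overlapped for POLRMT, MTERF1 and MTERF3 and did not for NRF1. The number of genes called in this list was 8 with all libraries and 5 without DMSO replicate 4, dTAGV1 replicate 2 or dTAGV1 replicate 3. TFAM, which packages mitochondrial DNA and starts its transcription, was at 106 ± 10.2 and 115 ± 12.1 CPM and was not called; it was named after its values were seen.

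Of 7 genes for mitochondrial polyadenylation and RNA decay, all tested, 2 rose and 3 fell (71.4% called), with a median of 0.12. PDE12, which removes A from mitochondrial tails, fell from 42.4 ± 4.43 to 23.5 ± 3.47 CPM (SD, n = 4), with a log2 fold change of -0.85 (edgeR adjusted p = 3.95e-06). REXO2, which degrades short RNA fragments in mitochondria, rose from 149 ± 11.9 to 225 ± 15.9 CPM, by 0.59 on the log2 scale (edgeR adjusted p = 5.08e-07). PNPT1, the exonuclease of the mitochondrial degradosome, fell by 0.43 and ANGEL2 by 0.36. MTPAP, the poly(A) polymerase of the organelle, was at 38.5 ± 1.92 and 44.8 ± 3.402 CPM with an edgeR adjusted p of 0.0764; it too was named after its values were seen.

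Among 26 tested genes for processing, modification and stability of mitochondrial RNA, 3 rose and 9 fell (46.2% called), and the median was -0.16. TRMU and GTPBP3, which modify the wobble base of mitochondrial tRNAs, fell by 1.31 and 1.09 on the log2 scale, and PUS1, a pseudouridine synthase, by 1.04. The groups of TRMU overlapped (SE 0.33), with DMSO replicate 1 at 7.38 CPM and dTAGV1 libraries at 5.01 to 8.76 CPM. Those of GTPBP3 and PUS1 did not overlap. MTERF4, which acts in assembly of the mitochondrial ribosome, rose by 0.77. Of 12 tested translation factors, 4 rose and 3 fell (58.3% called), with a median of 0.17, among them MTRF1, a release factor family member, with 0.64 and the elongation factor GFM1 with -0.50. Of 12 tested genes of mitochondrial DNA replication and maintenance, 2 rose and 5 fell (58.3% called), with a median of -0.19. RNASEH1, which removes RNA from DNA hybrids in the nucleus and in mitochondria, fell from 98.4 ± 10.3 to 26.4 ± 5.50 CPM (SD, n = 4), with a log2 fold change of -1.89 (edgeR adjusted p = 3.51e-12), and ATAD3A fell by 1.13, while POLG2, the accessory subunit of the DNA polymerase, rose by 0.73.

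The 13 mitochondrial proteins work beside nuclear-encoded subunits of the same complexes, which moved in both directions. Of 73 tested subunits of the complexes that hold both kinds, 17 rose and 11 fell, which is 38.4% called beside 57.9% of all tested genes, and the median log2 fold change was 0.07. In complex I, 11 of 34 rose and 3 fell, with a median of 0.11, led by NDUFA5 with 0.61 and NDUFB11 with 0.50. In complex III, 1 of 10 rose, UQCRB with 0.39, and 2 fell. In complex IV, 3 of 11 rose, with COX7A2L at 0.40, and 1 fell. Genes were placed by symbol alone, so that some, such as COX7A2L here and NDUFA4 in complex I, may belong elsewhere. In ATP synthase, 2 of 18 rose and 5 fell, with ATP5MC2 at 0.71 and ATP5MC3 at -0.75, both of which encode the same ring subunit. In none of these complexes does a difference from the mitochondrially encoded subunits carry a test.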

How the data were processed

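The authors deposited counts of sequencing reads per gene for 8 libraries, 4 per group, as whole numbers in the per-gene layout of STAR. The submitters' processing notes name FastQC, fastp, STAR, HTSeq and DESeq2 with GRCh38; versions and the gene annotation are not given in the sources used here. Per the labels' protocols, total RNA was extracted with Trizol and made into libraries with the Lexogen QuantSeq forward 3′ kit, so that reads from the strand of the gene were taken as its own. Uniquely mapped reads are counted in this layout, and whether PCR copies were removed is not given.

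Gene symbols were looked up by Ensembl identifier, and coordinates, counted from 1, and sequences were taken from GRCh38 with GENCODE 29. Genes were filtered with filterByExpr and tested with edgeR 4.0.16 in R 4.3.3 (TMM scaling, robust quasi-likelihood test, Benjamini-Hochberg over all tested genes, threshold 0.05). The SE is the log2 fold change divided by the root of F. A second fit took each library's mitochondrial sense reads as its library size, and another used opposite-strand counts. The procedure was checked on simulated counts. Alternatives used DESeq2 1.42.0, other scalings, filters and denominators, a replicate block and leaving out libraries. Genes named outside the mitochondrial chromosome were NUDT21 and, of each list, some of the up to 4 called genes with the largest change at a mean of at least 10 CPM; VIL1, COL1A1, TFAM and MTPAP fall outside this rule and were chosen after their values were seen. Members, lists and rules were chosen with earlier results of these data known.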

Additional observations from a re-analysis of the deposited data

Results flagged for a closer look

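In groups of 4 libraries, a value was singled out when its gap to the nearest other library was too large a part of the range of its group by Dixon's test at the 95% level. Of 142 groups of values 8 had such a library, and chance alone gives about 1 in 20. Of the 8, 7 concern DMSO replicate 1. There MT-RNR2 was low at 20865 CPM and MT-CO2 high at 5013 CPM. As shares of mitochondrial reads, MT-ND2 was low there at 3.18%, while MT-CO2 was high at 6.49% and MT-ND5 at 5.36%. On the opposite strand, reads over MT-TQ were low at 30.1 CPM and reads over MT-ND6 high at 11862 CPM. Both are per 1000000 opposite reads of the tested genes, with TMM scaling. The eighth is DMSO replicate 4, with MT-TF at 0.0118% of mitochondrial reads.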

How the results depend on the processing

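Over 80 results and 1026 alternative values, 894 stayed on their side of the threshold or close to the reported value, 50 lost the threshold, 49 gained it, 33 values or counts moved and 0 called values reversed. In 36 cases a change that was not called turned its sign. Of the 11 genes called by level 9 kept the call throughout; MT-TM and MT-TP are the exceptions. The number called lower by level, 1 as reported, was 2 with RLE scaling, no filter or a mean of at least 100 counts, 3 with library size scaling or DESeq2, and 1 to 4 with single libraries left out. With those left out, 3 to 7 were higher and 5 to 8 lower by share. On the opposite strand, scaling by the sense counts gave 1 higher and 0 lower, and single omissions 0 to 1 higher and 0 to 7 lower. Nuclear copies called numbered 1 with library size scaling and 1 to 3 with single omissions, and transcription genes 5 to 8. The mitochondrial share differed by 0.469 points of all reads and 0.569 of uniquely mapped reads. Chosen after seeing the data, leaving out both libraries numbered 1 gave 3 lower by level, and 1 higher and 6 lower on the opposite strand. The cause of these shifts was not tested.

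With a replicate block, 13 genes were higher and 4 lower by level, and 2 higher and 5 lower on the opposite strand. By level it added MT-RNR1, MT-ND5 and MT-TC, a minus-strand gene, to those called higher, and MT-TS1, MT-TY and MT-ND6 to those called lower. The labels do not say whether a number marks a shared batch or day. Over all tested genes, deviations of same-numbered libraries correlated at 0.131, -0.0176, 0.0232 and 0.0340. Over the 24 mitochondrial genes they did at 0.836, 0.639, 0.791 and 0.788, each library correlating best with its own number, a hint from the data only.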
